A study of Mus musculus with 32 samples.

Results

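Chromatin accessibility of mouse blood stem and progenitor cells kept in culture for 2 h was compared with that in columns named for E12.5 fetal liver (FL). The comparison covered 144587 autosomal regions of a single count table. The members were 6 columns of that table, 3 headed SHI and 3 headed E12.5 FL, of 32 samples in the whole series, and the 3 columns headed co-SHI were placed on the same contrast. They were chosen by their headings alone. By the labels of the samples so named, all cells came from C57BL/6 mice at E12.5 and carried the LSK phenotype (lineage-negative, Sca-1-positive, Kit-positive). Per the labels' protocols, the cultured cells were E12.5 FL cells that spent 2 h in a medium. For SHI it was the basic medium, and for co-SHI a medium in which hepatocytes of E16.5 embryos had been grown before. The E12.5 FL samples carry no culture label of their own. SHI and co-SHI are not spelled out in the labels, and nothing in them tells if the replicates were different animals or cultures, so p-values measure the spread between these libraries only.

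ATAC-seq reads accessibility as the number of insertions of a transposase in a region. In blood stem and progenitor cells, cytokines such as stem cell factor and thrombopoietin act through receptors coupled to JAK kinases and STAT proteins, which switch on their own inhibitors of the SOCS family within a short time. Interferons act through related STAT proteins together with IRF9 at a different DNA element. Dissociation and culture are known to set off immediate early and heat shock genes, and ATAC-seq of primary cells is read with that in mind.

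The E12.5 FL columns of the cultured table were first compared with the columns of the same names in the table of the developmental series. Their autosomal totals were 15781920, 21636947 and 15885112 counts in the cultured table and 3899593, 3752594 and 3613957 in the developmental table. The tables have 111 autosomal regions with identical coordinates, and there the counts of the same-named columns were equal in 0, 1 and 2 regions. The ratio of these counts had a median of 3.58 in FL 1, with a range from the 5th to the 95th percentile of 1.15 to 9.37. The columns were thus not scaled copies of each other. Across 72344 regions shared by the tables, the same-named columns correlated with r of 0.823, 0.844 and 0.855 on log2 levels. The E12.5 FL columns used here correlated in an overlapping range with the developmental 1w marrow (BM) columns (0.806 to 0.853). Such r therefore do not mark the stage. The columns headed SHI and co-SHI correlated with the developmental E12.5 FL columns with r of 0.815 to 0.865, and there the best match of each developmental column was a co-SHI column, while over the 111 identical regions it was SHI 2. Within a table, E12.5 FL libraries correlated with r of 0.948 to 0.954 in the cultured table and 0.861 to 0.883 in the developmental table. Over regions that overlap by at least 1 base, the best developmental match of each E12.5 FL column used here was 1w BM 1 (0.821, 0.815 and 0.828). These correlations are descriptions across regions, which share depth and mean level.

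The peak list deposited for each sample gives a fold enrichment per peak, which carries a pattern of its own library. The deviation of each E12.5 FL list from their mean followed the developmental column of its own number with r of 0.59, 0.58 and 0.52. This was over 11143 regions with a peak in all 3 lists that are shared with the developmental table. With the same-named columns of the cultured table these r were -0.08, -0.05 and -0.03, over all 12765 regions with a peak in all 3 lists. The E12.5 FL columns used here are therefore not shown to be the libraries whose names they carry, and which cells they hold was not given in the sources used here.

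The headings of the cultured columns and the labels of the cultured peak lists also went against each other. Over 35312 regions with a peak in all 6 lists, the lists labelled SHI 1, SHI 2 and SHI 3 followed the columns headed co-SHI 1, co-SHI 3 and co-SHI 2, with r of 0.57, 0.51 and 0.6. The lists labelled co-SHI 1, 2 and 3 followed the columns headed SHI 1, 2 and 3, with r of 0.55, 0.45 and 0.63. Either the columns or the lists carry the wrong medium, and the files do not tell which. Groups are named here by their column headings. Totals over all regions and genes, the named higher regions and several gene lists are given for both cultured groups. The other lists and the named lower regions are given for SHI alone. An exchange of headings would exchange the names of the cultured groups. The peak names carry the same digit string in the 3 co-SHI lists and other strings in the SHI lists, where the list SHI 2 has a string of its own. By the matches above, the 3 co-SHI lists go with the columns headed SHI. The list SHI 2 goes with the column headed co-SHI 3. What these strings stand for was not given. Differences between the cultured groups cannot be told apart from whatever the strings mark.

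**Figure D1:**
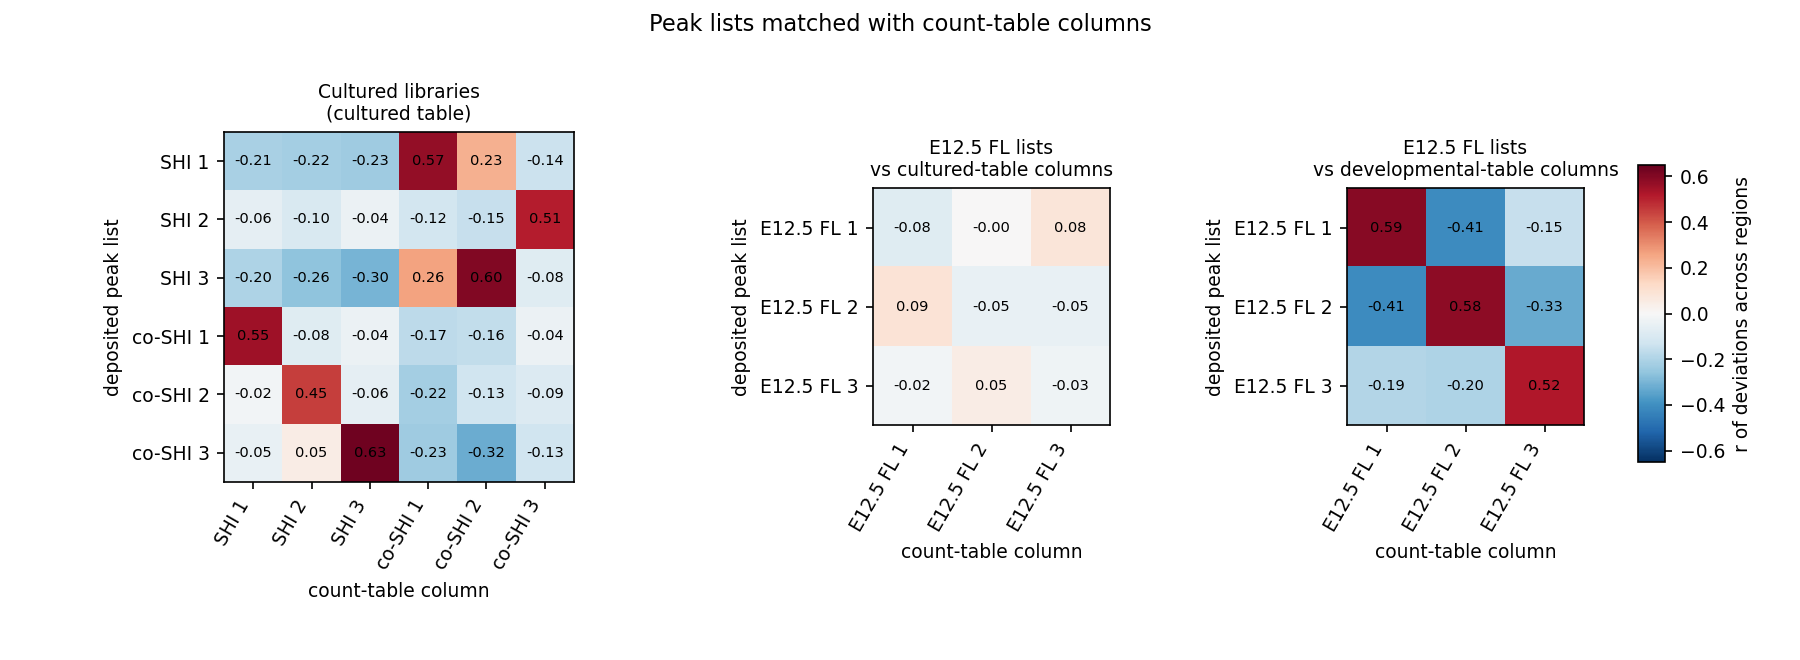
Pearson r between the deviations of each deposited peak list (rows) and of each count-table column (columns) from the mean of their set, across regions, for the 6 cultured libraries and for the E12.5 FL lists against the cultured and the developmental table. SHI lists match co-SHI columns with r of 0.51 to 0.6, co-SHI lists match SHI columns with r of 0.45 to 0.63, and the E12.5 FL lists match the developmental table alone.

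The 9 columns held 7376233 to 21636947 autosomal counts, the lowest in SHI 2. Over the 5000 regions of highest variance, the first principal component took 50.9% of the variance. It set the E12.5 FL columns (-72.6 to -69.2) apart from the cultured columns (22.4 to 45). Culture cannot be told apart from any difference in experiment or sequencing between the E12.5 FL and the cultured libraries. Regions at gene ends (within 1 kb of an end of a gene span, or at a RefSeq start) took 36.7% to 37.7% of the counts in the E12.5 FL columns and 41.2% to 42.7% in the cultured columns. No peak of the 9 lists lay in 52629 regions (36.4%), and in 74.9% of these the E12.5 FL mean was above the cultured mean, against 53% of the other regions.

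The LSK label was checked against 9 defining genes. Counts were summed over the regions assigned to each gene and given as CPM, the usual scaling of counts to a common library total. Kit, the receptor of stem cell factor, held 128 to 133 CPM in the E12.5 FL columns and 123 to 129 in SHI, and Cd34 held 168 to 171 and 153 to 194. The 9 genes together took 1671 to 1733 CPM in E12.5 FL, 1724 to 1804 in SHI and 1775 to 1878 in co-SHI, and their median level (157 CPM) was above that of all genes (43.4 CPM). Ly6a, which encodes the sort marker Sca-1, was the lowest of them and is described below with the interferon genes. Hepatocyte genes took 309 to 328 CPM in E12.5 FL and 277 to 293 in SHI over 13 measured genes. Of these 0 were higher and 4 lower (2 without E12.5 FL 2), beside 19.4% of all genes higher and 19.7% lower. The albumin gene Alb held 39.8, 44.1 and 40.2 CPM in E12.5 FL and 34.9, 33.4 and 35.4 in SHI, with no overlap of the groups (log2 fold change -0.26 ± 0.09 (SE), edgeR adjusted p = 0.025). In bulk cells, a smaller share of a cell type and a lower accessibility per cell cannot be told apart.

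Of 144584 regions tested with edgeR's quasi-likelihood test, 27181 (18.8%) differed between the SHI and E12.5 FL columns at an adjusted p under 0.05. In SHI, 16914 (11.7%) were higher and 10267 (7.1%) lower, and 5547 and 4165 of these differed by at least 1 on the log2 scale. The groups of 3 libraries did not overlap in 33.8% of all regions and in 15974 of the higher and 9818 of the lower calls. Higher regions made 62.2% of the calls with TMM scaling, 52.9% with cyclic loess offsets and 41.5% with total counts. Total counts shifted the median over all tested regions from -0.01 to -0.14 on the log2 scale, so small changes had a direction only relative to the scaling. For co-SHI against the same E12.5 FL columns, 30574 regions (21.1%) were called, 18068 higher and 12506 (8.65%) lower.

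Gene ends and remote regions went opposite ways. Of 21603 regions at gene ends, 30.6% were higher in SHI and 2.75% lower, with a median log2 fold change of 0.24. Of 24956 regions with no gene within 50 kb, 6.03% were higher and 11.3% lower, with a median of -0.20. With total counts the share of gene ends called higher was 19.5%, and with loess offsets, which remove a trend with level, it was 15.4%. Gene ends made a smaller part of the larger changes. Among regions higher by at least 1 on the log2 scale, 8.0% were gene ends, against 14.9% of all tested regions. In the same set 46.0% lay in gene bodies and 28.8% were intergenic, near the 42.5% and 25.3% of all tested regions. Among regions lower by at least 1, 35.7% had no gene within 50 kb, against 17.3% of all tested regions. A peak of any of the 9 lists was overlapped by 41.3% of them. It was 82.7% of those higher by at least 1 and 63.6% of all regions. The part of the share of counts at gene ends in these results was not tested beyond the scalings given.

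The 10 named higher regions, those of smallest p under the naming rule, included the starts of Socs3 and Cish, genes that cytokines switch on through STAT proteins, and 1 region in the gene next to Cish. The other 7 lay nearest to genes outside the JAK-STAT list. At the start of Socs3, an inhibitor of JAK kinases (chr11:117969111-117969615), the E12.5 FL columns held 10.8, 11.4 and 11.2 CPM and the SHI columns 53.8, 60.9 and 62.8. The co-SHI columns held 40.9, 42.9 and 48.1, between the other groups and without overlap with either. The log2 fold change of SHI against E12.5 FL was 2.41 ± 0.11 (SE, n = 3 and 3, edgeR adjusted p = 3.3e-18), that of co-SHI against E12.5 FL was 1.98, and co-SHI differed from SHI (adjusted p = 0.032).

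The promoter of Socs3 is shown because it holds the letters of a STAT element, TTCNNNGAA, given in capitals. The 250 bases before the start come from RefSeq on GRCm38.p6, chr11:117969367-117969616 on the minus strand, printed 5′ to 3′, and the match begins 154 bases before the start.
Socs3: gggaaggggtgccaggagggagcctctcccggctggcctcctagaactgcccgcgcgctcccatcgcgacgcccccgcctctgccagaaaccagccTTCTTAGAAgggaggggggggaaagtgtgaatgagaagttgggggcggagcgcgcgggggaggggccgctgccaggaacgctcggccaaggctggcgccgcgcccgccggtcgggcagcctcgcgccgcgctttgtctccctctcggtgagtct
Both strands were searched in windows from 250 bases before to 50 after each start. The motif was found in 7.67% of all 18660 windows, in 6.34% of the 12357 windows at a tested region and in 26 of the 158 windows at regions higher in SHI by at least 1. In the 250 bases before the starts of Cish (1 window) and Pim1 (2 windows) the STAT letters were not found, nor before Socs1, which has 2 matches of the interferon element described below. A match, or its lack, describes letters only.

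Cish, which encodes another SOCS-family inhibitor of STAT5 signalling, showed the same order. At its start (chr9:107296294-107296814) the E12.5 FL columns held a mean of 11.6 ± 1.2 CPM (SD, n = 3), the lowest 10.2 in FL 2 and 12.1 in FL 3. The cultured columns held 54.8, 53.3 and 47.1 in SHI and 39.7, 44.4 and 52.2 in co-SHI. The E12.5 FL columns lay below all cultured columns, while SHI and co-SHI overlapped. The log2 fold change was 2.16 ± 0.12 for SHI (edgeR adjusted p = 1.7e-16) and 1.97 for co-SHI, and no difference between the media passed the test (adjusted p = 0.46). Within 50 kb of the Cish start, 11 of 23 regions were higher in SHI and 0 lower, against 11.7% and 7.1% of all regions.

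Of the Cish locus, 2 distal regions had larger changes than the start region. So had a region centred 934 bases before the start (log2 fold change 2.49 in SHI and 2.32 in co-SHI). The other regions of the locus had smaller changes. A region 37.9 kb beyond the start, inside the neighbouring gene Hemk1 (chr9:107334331-107334833), held 0.789, 0.388 and 0.296 CPM in E12.5 FL and 19.1, 14.0 and 15.6 in SHI. Its log2 fold change of 5.07 ± 0.26 (edgeR adjusted p = 1.1e-17) had a base of few counts in E12.5 FL. A region 11.4 kb beyond the start held 0.486, 0.647 and 0.887 CPM in E12.5 FL and 13.2, 10.6 and 7.43 in SHI (log2 fold change 3.93). The co-SHI columns overlapped the SHI columns there, with 12.2, 13.4 and 11.5 CPM. The region in Hemk1 overlapped no peak of the E12.5 FL lists. Around Socs3, 14 of 22 regions were higher in SHI and 0 lower.

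**Figure D2:**
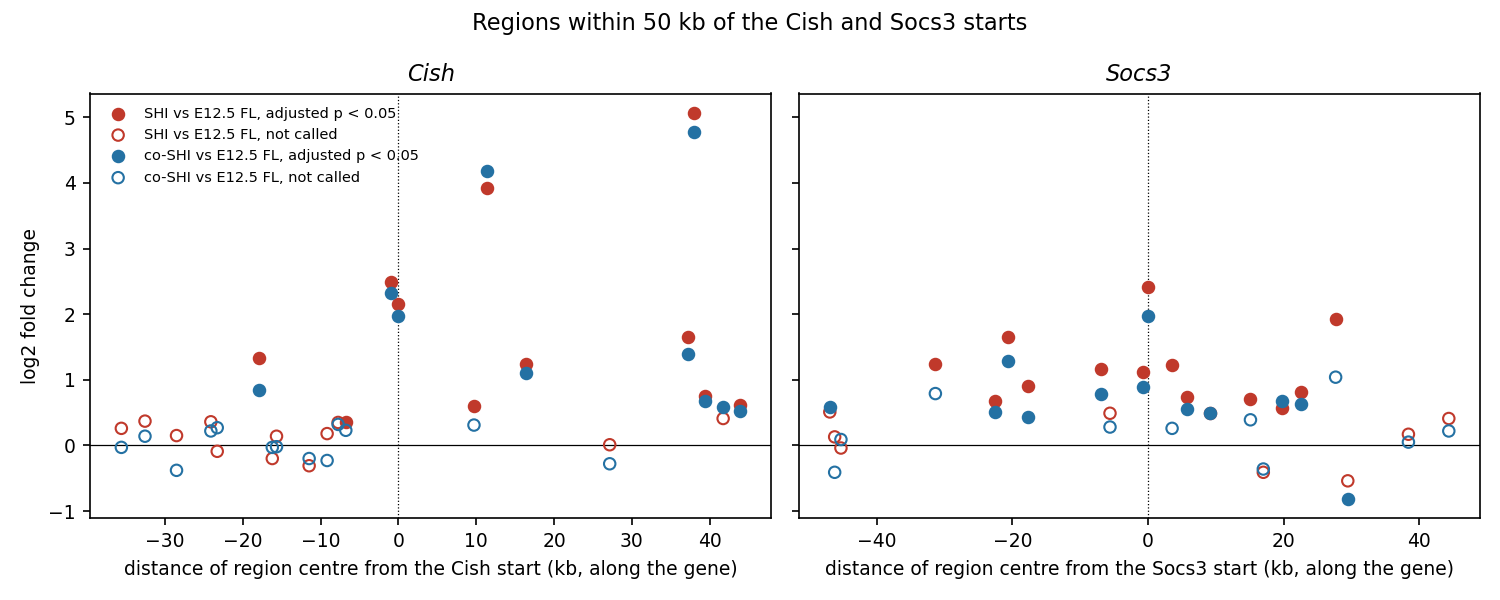
Log2 fold change of each region within 50 kb of the Cish start (23 regions) and the Socs3 start (22 regions) against its distance in kb, for SHI (red) and co-SHI (blue) against the same E12.5 FL columns; filled points have an adjusted p under 0.05. The highest points are the Cish regions at 37.9 kb (5.07 in SHI) and 11.4 kb (3.93).

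Regions at Socs2 and Pim1, both of the JAK-STAT list, and at Csf3r, of the neutrophil list, were also higher. At a start of Socs2 (chr10:95416541-95417132), which encodes a brake on growth hormone and cytokine receptors, E12.5 FL held 8.98, 11.7 and 10.7 CPM and SHI 43.0, 41.8 and 33.8 (log2 fold change 1.91 ± 0.13, edgeR adjusted p = 3.1e-14). Summed over all its regions the change of Socs2 was 0.63, and it was -0.38 over its regions with an E12.5 FL peak and 0.15 over those shared with the developmental table, with no call in either. At Pim1 (chr17:29490237-29491016), a survival kinase, the columns rose from 59.8, 54.5 and 49.1 CPM to 100, 117 and 111 (1.01 ± 0.10, adjusted p = 4.2e-10). At Csf3r (chr4:126024309-126025277), the receptor of G-CSF, they rose from 11.2, 10.7 and 12.9 CPM to 30.6, 32.6 and 38.6 (1.56 ± 0.13, adjusted p = 5.8e-12). For these 3 genes the SHI and co-SHI columns overlapped.

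The other named higher regions were Fes, a tyrosine kinase of myeloid cells (log2 fold change 3.82), Specc1 (3.42), Slfn2, a Schlafen family gene (2.83), Cradd, an adaptor in cell death (2.40), Blcap (4.52), Copb1 (3.00) and Id1, an inhibitor of differentiation and a BMP target (1.81). All 10 were called in co-SHI as well, at 1.65 to 4.78, and of the 10 only Socs3 passed the test between the media. The distal region by Id1 (chr2:152741495-152742108) held 26.0, 22.4 and 26.1 CPM in E12.5 FL, 87.7, 86.9 and 85.7 in SHI and 66.4, 75.8 and 91.9 in co-SHI. Naming by the nearest gene is a rule of distance and does not say which gene a region serves.

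The named higher regions could be read in the developmental table for 7 of 10. On a joint scale of both tables, the Socs3 start held a mean of 69.2 in the E12.5 FL columns used here, 348 in SHI and 100, 62.8 and 121 in the 3 developmental E12.5 FL libraries. In all 7, the 3 developmental E12.5 FL libraries lay below the SHI mean, and their mean lay below that of the E12.5 FL columns used here in 2 of the 7. For Pim1 they held 356, 208 and 306, against 339 for the E12.5 FL columns used here and 644 for SHI. Of 11676 shared regions called higher in SHI, their mean was nearer to SHI than to the E12.5 FL columns in 3917 (33.5%), and of 6147 called lower in 3731 (60.7%). Among regions that differed by at least 1 these shares were 40.9% of 2802 and 46.7% of 1371.

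The 10 named lower regions were at Zfp985, Ccdc60, Stk39, Cfap20dc, Auts2, Tmtc3, Gadl1, Rarb, Prim2 and Vmn1r28, with log2 fold changes of -2.39 to -1.39. At Zfp985 (chr4:147579245-147579813), a zinc finger gene, E12.5 FL held 37.4, 26.5 and 26.6 CPM and SHI 5.72, 7.98 and 5.25 (-2.28 ± 0.17, edgeR adjusted p = 7.1e-13). In Rarb (chr14:16721354-16721882), a retinoic acid receptor, E12.5 FL held 12.9, 10.1 and 9.46 CPM and SHI 1.91, 2.24 and 2.08 (-2.39 ± 0.23). Zfp985 and Vmn1r28, a vomeronasal receptor, belong to large families of near copies, where reads may be split between copies. In all 10 the developmental E12.5 FL libraries lay above the SHI mean, and in all 10 their mean lay below that of the E12.5 FL columns used here. At Zfp985 the developmental libraries held 98.7, 198 and 143 on the joint scale, against 188 and 37.3 for the E12.5 FL and SHI columns of this table.

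**Figure D3:**
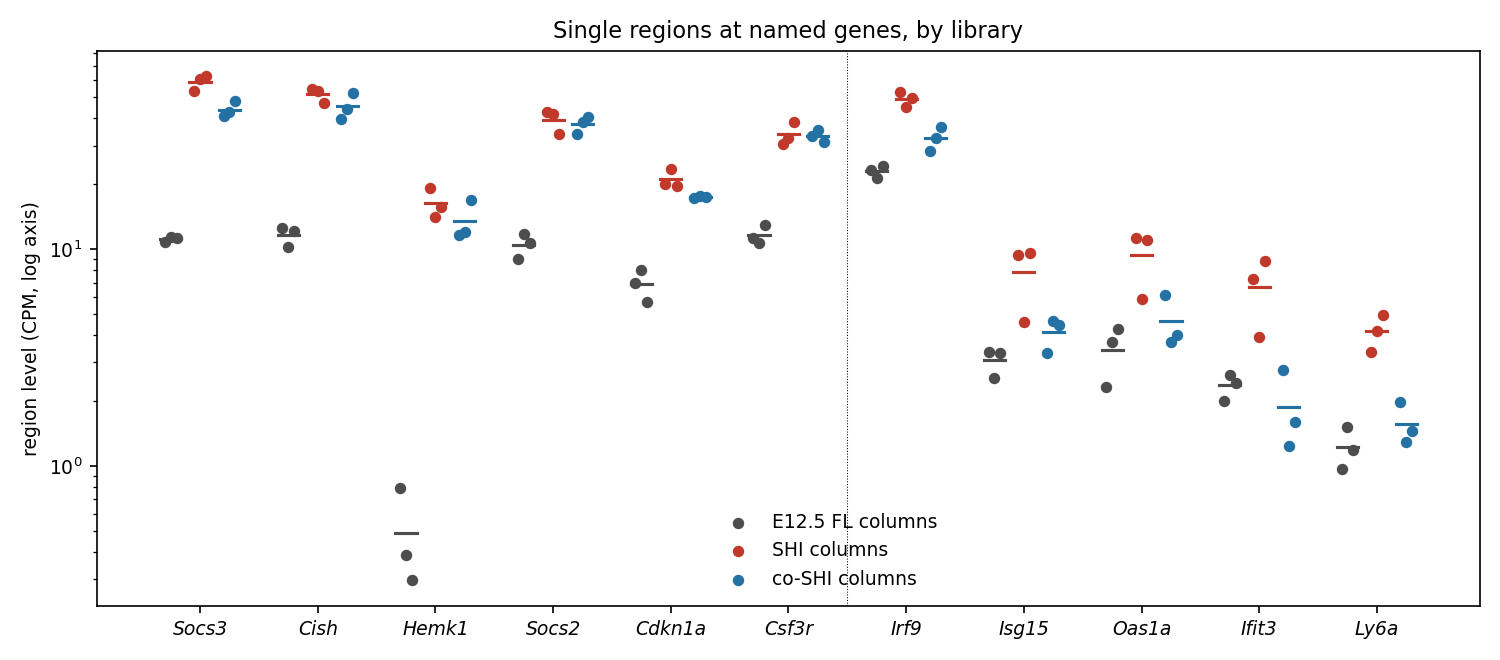
Level (CPM, log axis) of 1 region at each of 11 named genes in the 3 libraries of each group, with the group mean as a bar. Left of the dotted line both cultured groups lie above E12.5 FL, as at Cish (a mean of 11.6 against 39.7 and above); right of it the SHI columns lie above and the co-SHI libraries overlap E12.5 FL at Isg15, Oas1a, Ifit3 and Ly6a, while at Irf9 they lie in between.

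For gene lists, counts were summed per gene and 16863 genes were tested, of which 6599 (39.1%) differed between SHI and E12.5 FL, 3278 (19.4%) higher and 3321 (19.7%) lower. For co-SHI against E12.5 FL 6003 genes (35.6%) were called, 3162 (18.8%) higher and 2841 (16.8%) lower. The libraries did not overlap in 50.1% of all genes for SHI and 46.8% for co-SHI. The median log2 fold change of all genes was 0.00. These calls include many small changes, and lists are described by counts beside those shares, with no test of a list. With gene-end regions alone, 3585 of 14275 genes (25.1%) were called.

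Of 20 measured JAK-STAT target genes, 8 were higher and 3 lower in SHI (median 0.16), and 6 higher and 3 lower in co-SHI. With gene-end regions alone it was 9 higher and 1 lower of 19 in SHI. The higher genes were led by Cish (51.2, 54.3 and 52.1 CPM in E12.5 FL and 156, 147 and 139 in SHI; log2 fold change 1.49 ± 0.07), Socs3 (0.84), Pim1 (0.67) and Socs2 (0.63, with the turn of sign given above), and Socs1 followed at 0.60. The lower ones were Spry1, Spry2 and Spred1, inhibitors of receptor tyrosine kinase signalling to ERK, with -0.24, -0.49 and -0.16. Stat3, Stat5a and Stat5b did not pass the test (0.02 to 0.16).

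Interferon response genes differed between the cultured groups, whose peak lists also carry different digit strings. Of 18 measured, 9 were higher and 3 lower in SHI against E12.5 FL (median 0.36), while 1 was higher and 5 lower in co-SHI. Among the 12 interferon response genes with a region at an E12.5 FL peak, 3 were higher and 0 lower in SHI. The 5 lower in co-SHI were 2 without E12.5 FL 1 and 3 without E12.5 FL 2, E12.5 FL 3, co-SHI 1 or co-SHI 2. In the direct test, 10 of 18 were lower in co-SHI than in SHI and 0 higher, beside 3.59% of all genes lower and 7.31% higher. At the Isg15 start (chr4:156200639-156201139), a ubiquitin-like protein of the antiviral response, E12.5 FL held 3.34, 2.55 and 3.31 CPM, SHI 9.35, 4.62 and 9.60 and co-SHI 3.32, 4.63 and 4.47. SHI 2 was near the co-SHI columns, and SHI 1 and SHI 3 were high. At Oas1a, an antiviral RNA-degrading pathway enzyme (chr5:120906908-120907800), E12.5 FL held 2.31, 3.71 and 4.26 CPM, SHI 11.2, 5.88 and 11 and co-SHI 6.16, 3.71 and 4.02, again with SHI 2 the lowest of SHI.

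The start of Irf9 (chr14:55603774-55604346), a DNA-binding factor of the interferon response, was the most deeply read of these. It held 23.1, 21.3 and 24.2 CPM in E12.5 FL, 52.8, 45.3 and 49.5 in SHI and 28.2, 32.6 and 36.5 in co-SHI, with no overlap between any of the groups. Summed per gene, Irf9 was higher in SHI by 0.96 ± 0.10 (edgeR adjusted p = 9e-08) and in co-SHI by 0.37 (adjusted p = 0.0037), and lower in co-SHI than in SHI by a log2 fold change of -0.59 (adjusted p = 0.00072). Ifit3, an antiviral protein, had 2.36, 3.18 and 2.89 CPM in E12.5 FL, 7.75, 4.24 and 9.40 in SHI and 3.12, 1.36 and 1.67 in co-SHI. Its change between co-SHI and SHI was -1.82 ± 0.30 (adjusted p = 0.00092). Ly6a, a gene that interferon also induces, had 7.24, 8.81 and 9.37 CPM in E12.5 FL, 23.6, 16.8 and 27.9 in SHI and 13.3, 12.4 and 10.5 in co-SHI. It was higher in SHI by 1.44 ± 0.16 (adjusted p = 4.8e-07) and in co-SHI by 0.51 (adjusted p = 0.018), and lower in co-SHI than in SHI by -0.93 (adjusted p = 0.0011).

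Not all interferon genes took part. Ifit2 (-0.29), Gbp2 (-0.30) and Ifi44 (-0.71) were lower in SHI than in E12.5 FL, while Irf1, Rsad2 and Ddx58 did not pass the test (0.00, -0.01 and -0.04). Leaving out single libraries of the compared groups left 6 to 12 of the 18 genes lower in co-SHI than in SHI, the fewest without SHI 1. Since headings and peak lists are exchanged, the group high at these genes carries the heading SHI in the count table and the label co-SHI in the peak lists.

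The starts of Isg15, Ifit3 and Oas1a are shown because each holds the letters of the interferon-stimulated response element (ISRE: GAAA, then NN, then GAAA, searched on both strands), in capitals. They come from RefSeq on GRCm38.p6, 250 bases before the start and 5′ to 3′: Isg15 at chr4:156200819-156201068 (minus strand), Ifit3 at chr19:34583279-34583528 (plus strand) and Oas1a at chr5:120907526-120907775 (minus strand).
Isg15: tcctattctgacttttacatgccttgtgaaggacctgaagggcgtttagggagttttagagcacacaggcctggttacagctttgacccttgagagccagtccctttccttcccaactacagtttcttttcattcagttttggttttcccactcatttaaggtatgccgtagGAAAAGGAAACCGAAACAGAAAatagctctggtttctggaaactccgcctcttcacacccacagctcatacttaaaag
Ifit3: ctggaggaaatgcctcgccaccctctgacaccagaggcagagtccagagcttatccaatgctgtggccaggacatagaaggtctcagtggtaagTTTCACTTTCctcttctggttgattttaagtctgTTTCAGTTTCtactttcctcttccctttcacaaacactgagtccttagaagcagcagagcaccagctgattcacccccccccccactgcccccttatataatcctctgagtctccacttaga
Oas1a: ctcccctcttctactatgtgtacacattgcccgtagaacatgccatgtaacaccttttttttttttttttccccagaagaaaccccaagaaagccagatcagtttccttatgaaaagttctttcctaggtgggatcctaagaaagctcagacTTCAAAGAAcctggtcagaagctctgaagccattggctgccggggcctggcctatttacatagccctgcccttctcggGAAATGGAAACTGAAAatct
Isg15 has 3 overlapping matches that begin 78, 72 and 66 bases before the start, Ifit3 has 2 that begin at 156 and 122 bases, and Oas1a has 2 that overlap, at 20 and 14 bases. Oas1a also has the STAT letters, at 98 bases. The windows of Irf9 (2) and Irf7 (1) held neither element. The element was found in 3.4% of all 18660 promoter windows and in 2.95% of those at a tested region. It was in 13 of the 43 windows (30.2%) at regions lower in co-SHI than in SHI and in 4 of the 99 (4.04%) at regions higher. The same 43 windows held the AP-1 letters, TGANTCA, in 11 (25.6%) and the STAT letters in 6 (14.0%), so the set is not marked by the interferon element alone. In windows at regions higher in SHI than in E12.5 FL by at least 1 it was in 8.23% of 158, and in co-SHI in 0.8% of 125. The AP-1 letters were in 20.9% and 11.2% of the windows at regions higher in SHI and in co-SHI by at least 1 and in 4.9% of windows at a tested region.

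Genes of the response to handling were mixed. Of 30 immediate early genes, 14 were higher and 5 lower in SHI, and 4 higher and 9 lower in co-SHI. The 14 immediate early genes were 9 without E12.5 FL 2 or with gene-end regions alone, and 6 higher and 8 lower of 29 in regions with an E12.5 FL peak. The 9 lower in co-SHI were 3 without E12.5 FL 3, 4 without co-SHI 1 and 5 without co-SHI 2. Fos held 250, 251 and 276 CPM in E12.5 FL and 248, 230 and 226 in SHI, and Fos, Fosb and Jun did not pass the test (-0.14, 0.05 and -0.05). Fosl1 (0.70), Jund (0.54), Csrnp1 (0.49) and Gadd45b (0.47) were the highest, and Junb, Egr1 and Atf3 were higher by 0.19, 0.25 and 0.27. In co-SHI, Junb, Egr1 and Atf3 did not pass the test (0.04, 0.00 and 0.09). Atf3 turned to -0.09, with no call, when regions were limited to those shared with the developmental table. Dusp6 (-0.48) and Klf6 (-0.23) were lower.

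Of 20 heat shock and chaperone genes, 13 were higher and 0 lower in SHI (median 0.25), and 12 and 0 in co-SHI. Hsp90ab1 rose by 0.61 and Hspa1b by 0.57, which shares near-identical sequence with Hspa1a (0.34), so the split between them is uncertain. With gene-end regions alone 4 of 19 were higher and 1 lower, and 8 of 20 were higher without E12.5 FL 2 or without E12.5 FL 3. Of 24 chromatin regulator genes, 16 were higher and 0 lower in SHI, and 11 higher and 0 lower in co-SHI. In SHI they were led by Ezh1, Hdac1 and Smarca4 (0.42 each) and Dnmt1 (0.38). With gene-end regions alone 8 of 23 were higher and 1 lower in SHI. The share of counts at gene ends differed between the groups as given above, and its part in these 2 lists was not tested.

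Of 19 p53 target and apoptosis genes, 7 were higher and 0 lower in SHI, and 10 higher and 1 lower in co-SHI (6 higher without co-SHI 2). At the start of Cdkn1a (chr17:29093462-29094006), a cell cycle inhibitor, E12.5 FL held 6.98, 8.02 and 5.68 CPM and SHI 19.9, 23.5 and 19.6, with co-SHI at 17.1, 17.6 and 17.4 (log2 fold change 1.59 ± 0.15, edgeR adjusted p = 3e-10). Bax, a promoter of cell death, was higher by 0.79 and Phlda3 by 0.63. Among 20 integrated and oxidative stress genes, 8 were higher and 2 lower. Chac1, a target of ATF4, rose from 25.6, 25.3 and 26.9 CPM to 46.4, 44.5 and 56.2 (0.93 ± 0.10), and Trib3 (0.57) and Xbp1 (0.46) were also higher.

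Among 22 NF-kB and inflammatory genes, 1 was higher and 9 lower in SHI (median -0.17), and 1 higher and 12 lower in co-SHI (median -0.28). Cxcl2, a neutrophil chemokine, held 36.8, 33.8 and 33.2 CPM in E12.5 FL and 22.2, 22.1 and 25.9 in SHI (-0.56). Ptgs2 (-0.51), Nfkbiz (-0.39) and Tnfaip3, an inhibitor of NF-kB (-0.39), were also lower, and Ccl5 was higher (0.59). With gene-end regions alone 0 were higher and 8 lower of 21.

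**Figure D4:**
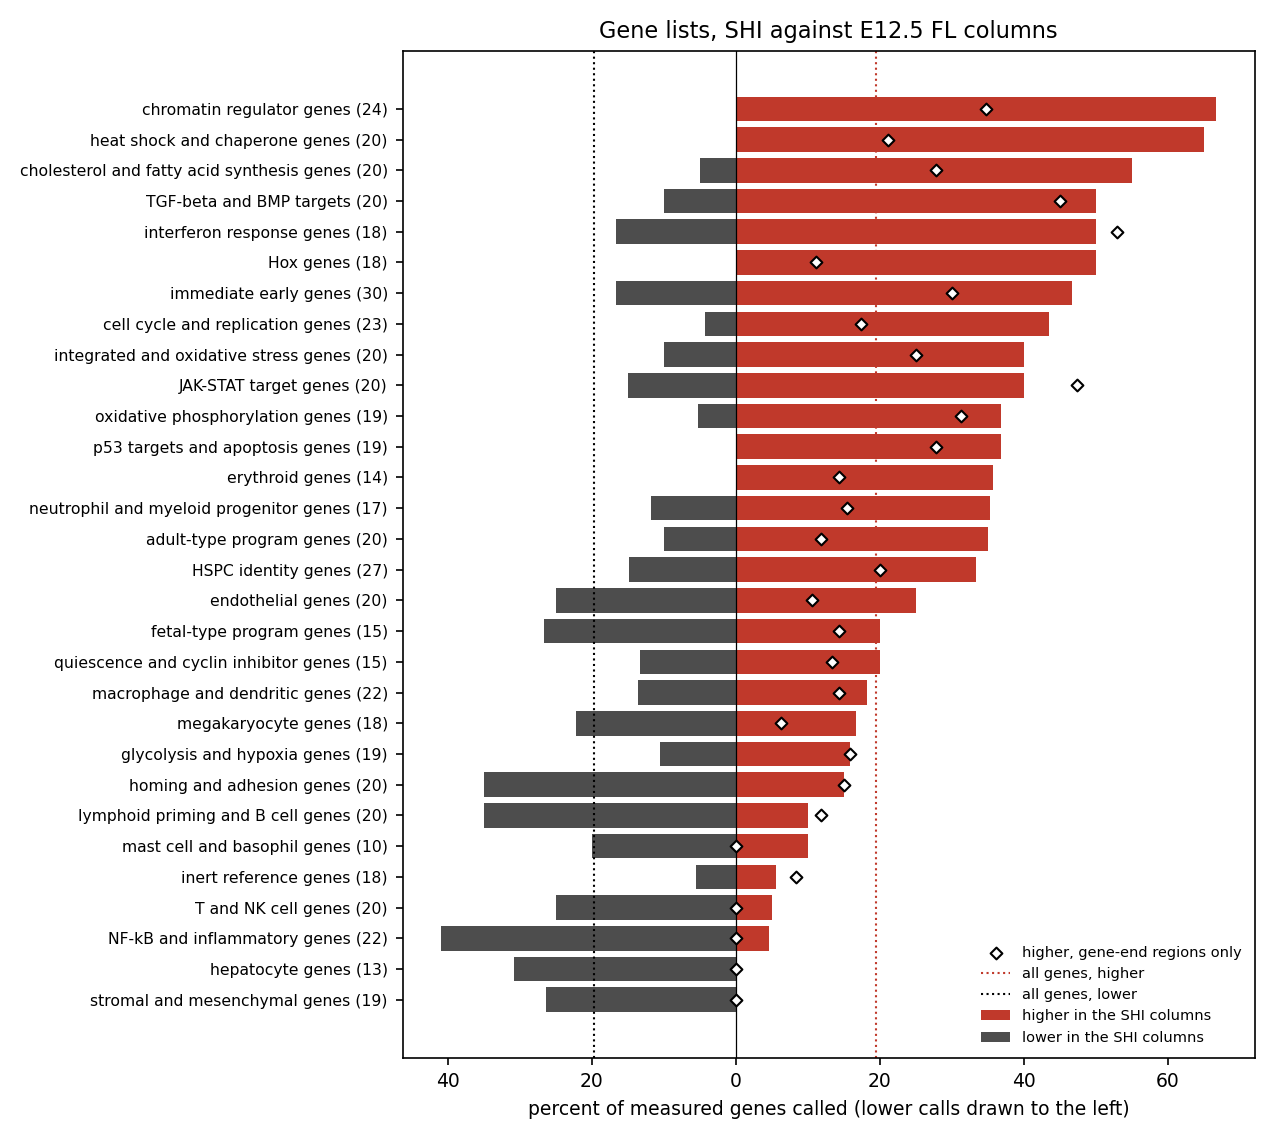
Percent of the measured genes of 30 lists (number in brackets) called higher (red, to the right) or lower (grey, to the left) in the SHI than in the E12.5 FL columns; dotted lines give the shares of all genes (19.4% and 19.7%) and white diamonds the share called higher with gene-end regions alone. Chromatin regulator genes (16 of 24) and heat shock genes (13 of 20) lead on all regions, and NF-kB genes (9 of 22) have the longest bar of lower calls.

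Of 20 cholesterol and fatty acid synthesis genes, 11 were higher and 1 lower in SHI, and 14 higher and 2 lower in co-SHI. Acaca (0.45) and Fdft1 (0.41) were among those higher in SHI, where 5 of 18 were higher with gene-end regions alone. Of 23 cell cycle and replication genes, 10 were higher and 1 lower in SHI, with Aurkb at 0.59 and Top2a at 0.51. In co-SHI 15 were higher and 1 lower, and 11 to 16 were higher when libraries were left out singly. The 10 cell cycle and replication genes were 5 without E12.5 FL 3 or SHI 1, 6 without E12.5 FL 1 or SHI 2, and 4 with gene-end regions alone. Of 18 Hox genes, 9 were higher and 0 lower in SHI, with Hoxb4 at 0.62, and 2 were higher with gene-end regions alone. In co-SHI 4 were higher and 0 lower, and 1 to 6 were higher when libraries were left out singly. The 9 Hox genes were 2 without E12.5 FL 2, 4 without SHI 3 and 5 without E12.5 FL 1 or SHI 2. TGF-beta and BMP targets had 10 higher and 2 lower of 20, with Id1 at 0.84 and Tgif1 at -0.46.

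Genes of stem and progenitor identity were divided. Of 27, 9 were higher and 4 lower in SHI, and in regions with an E12.5 FL peak 4 were higher and 8 lower of 24 HSPC identity genes. Runx1, a regulator of definitive blood formation, rose from 375, 443 and 426 CPM to 553, 543 and 539 (0.39). Flt3, a receptor of lymphoid-primed progenitors, held 277, 267 and 252 CPM in E12.5 FL and 212, 184 and 207 in SHI, without overlap (-0.40, edgeR adjusted p = 1.7e-05). Sox17, a regulator of fetal stem cells, was lower by -0.60. Of 15 fetal-type genes, 3 were higher and 4 lower, with Lin28b at -0.23 (0.06, with no call, in regions with an E12.5 FL peak) and Hmga2 not past the test (-0.15). Of 20 lymphoid priming genes, 2 were higher and 7 lower (4 lower without E12.5 FL 3), led by Igll1 (31.1, 28.7 and 29.9 CPM against 17.8, 15.3 and 16.6; -0.84).

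Megakaryocyte genes had 3 higher and 4 lower of 18, with the platelet chemokine genes Ppbp (-1.04) and Pf4 (-0.64) among the lower. Homing and adhesion genes had 3 higher and 7 lower of 20, among the lower Cxcr4 (-0.31), the receptor that keeps stem cells in the marrow. Neutrophil and myeloid progenitor genes had 6 higher and 2 lower of 17, macrophage and dendritic genes 4 and 3 of 22, and mast cell genes 1 and 2 of 10. Adult-type genes had 7 higher and 2 lower of 20 (4 higher without SHI 3), and quiescence genes 3 and 2 of 15. Oxidative phosphorylation genes had 7 higher and 1 lower of 19, and glycolysis genes 3 and 2 of 19.

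Markers of other cells had called shares near those of all genes in several lists, while their summed levels differed between the groups. Of 19 stromal genes, 0 were higher and 5 lower, and their sum was 689 to 708 CPM in E12.5 FL and 611 to 636 in SHI. Of 20 T and NK cell genes, 1 was higher and 5 lower (1020 to 1033 and 903 to 932 CPM). The 5 T and NK cell genes were 3 without SHI 1 and 0 of 10 in regions with an E12.5 FL peak. Of 14 erythroid genes, 5 were higher and 0 lower (695 to 739 and 786 to 834 CPM), and 3 were higher without SHI 2. Of 20 endothelial genes, 5 were higher and 5 lower, with Robo4 (-0.66) and Stab2 (-0.60) among the lower, and 3 were lower without E12.5 FL 1 or without E12.5 FL 2. Of all genes 19.4% were higher and 19.7% lower. None of the measured genes of these lists was at 0, since only genes with a tested region were measured. Of 18 genes of other tissues taken as an inert reference, 1 was higher and 1 lower. The part of other cells in the results was not tested.

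On the contrast itself, each library was given a position, with 0 at the mean of the E12.5 FL columns and 1 at the mean of the SHI columns. Over all tested regions co-SHI 1, 2 and 3 stood at 0.67, 0.68 and 0.81. Over the 27198 regions with an E12.5 FL peak they stood at 0.73, 0.80 and 0.86. The developmental E12.5 FL libraries stood at 0.58, 0.31 and 0.48 on shared regions. No developmental library stood near 0, and developmental E12.5 FL 1 lay within the ranges of the E16.5 FL and marrow libraries. The developmental E16.5 FL libraries stood at 0.55 to 0.60, the marrow libraries at 0.53 to 0.82 and the E12.5 PL libraries at 1.15 to 1.28. The E12.5 FL and SHI columns define the axis, so the positions of the others are a description with no test.

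**Figure D5:**
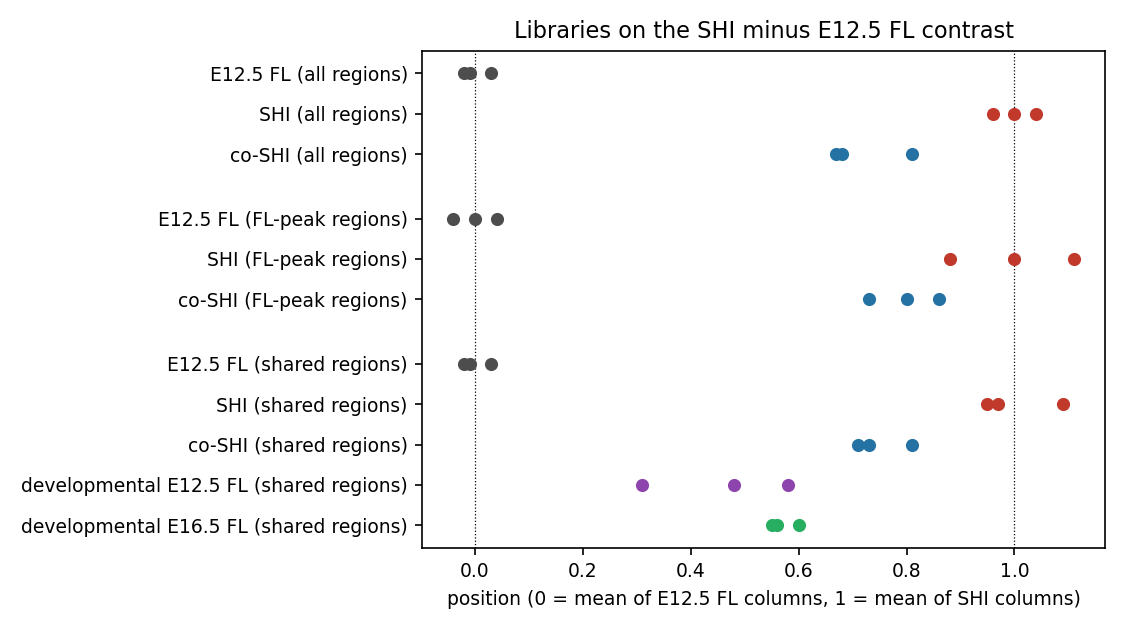
Position of single libraries on the SHI minus E12.5 FL contrast (0 at the mean of the E12.5 FL columns, 1 at the mean of the SHI columns) over all tested regions, over regions with an E12.5 FL peak and over regions shared by both tables. The co-SHI columns stand at 0.67 to 0.86 and the developmental E12.5 FL libraries at 0.31 to 0.58.

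Directly compared, co-SHI and SHI differed in 1431 regions (0.99%), 604 higher and 827 lower in co-SHI, and the libraries of the groups did not overlap in 16.7% of all regions. Among the 102 lower by at least 2 on the log2 scale, 2.9% were gene ends, against 14.9% of all tested regions. The count rested on single libraries: it was 220 without co-SHI 2, 236 without co-SHI 1, 536 without SHI 2, 887 without SHI 3 and 4737 without co-SHI 3. The columns co-SHI 1 and co-SHI 2 correlated with r of 0.961, and co-SHI 3 correlated with them with r of 0.941 and 0.943. Runx1 held a region (chr16:92620667-92621195) that was higher in SHI, with 10.3, 12.7 and 13.8 CPM in E12.5 FL, 26.2, 32.7 and 37.0 in SHI and 18.4, 15.4 and 22.7 in co-SHI, and it was lower in co-SHI than in SHI by -0.77 (edgeR adjusted p = 0.0036).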

How the data were processed

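ATAC-seq libraries labelled as LSK cells were used. Per the labels' protocols, libraries were made with Tn5 and 10 cycles of PCR. Tools listed, per the submitters' processing notes, are HOMER, DiffBind, deepTools, MACS2 and Trim Galore, with mm10 as the build. Not given in the sources used here are the aligner, duplicate removal, any Tn5 shift and how regions were merged; counts depend on each. The deposited tables hold raw counts per region, unscaled by the authors as far as the values show. The cultured table has 147852 regions of 501 to 3152 bp, of which 144587 autosomal ones were used, and every column matched a sample by its heading. The deposited peak lists give a fold enrichment ratio per peak, made by the authors' caller for each library; it served only to match lists with columns.

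All 9 columns were fitted together, with a mean for each group, filterByExpr (minimum count 10), TMM and edgeR 4.0.16 (quasi-likelihood F-test, two-sided in fold change, run under R 4.3.3), with Benjamini-Hochberg adjustment over all regions or genes at 0.05. CPM values use TMM-scaled totals, and a prior count of 2 went into log2 levels. No library repeated another (chi-square per region 2.19 to 3.49 within groups). Genes are the nearest RefSeq span of GRCm38.p6 within 50 kb. Coordinates are mm10, counted from 1. Positions inside gene spans were not split into exons and introns. The 30 lists held 580 genes, and some members are not reported here.

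Named regions had an adjusted p under 0.05, a log2 fold change of at least 1 in size, a level above the median and groups that do not overlap; the 10 of smallest p per direction were taken, 1 per gene, without predicted genes. Per list at most 4 called genes were named by size of change, and 23 genes always; other list members were named after their values were seen, as were the loci, promoters and motifs shown. For a gene in depth, the region of smallest p at its end or body is given. The members and lists were chosen with earlier results of these data known. Alternatives were DESeq2 1.42.0, its size factors, total counts, cyclic loess offsets (limma 3.58.1, span 0.3, 3 iterations), no filter, fits of only the compared groups, a replicate block, thinned counts, other sets of regions and leaving out each library. The fit was tested on simulated data. bedtools 2.31.1 made overlaps, and Python 3.11.15 with pandas 2.3.3, numpy 2.4.6 and matplotlib 3.10.9 was used.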

Additional observations from a re-analysis of the deposited data

Results flagged for a closer look

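Listed here are named results for which the direct test between the cultured groups passed, so that their changes against the shared E12.5 FL columns differed in size. Values are log2 fold changes of co-SHI against SHI, by edgeR's quasi-likelihood test. The region at the Socs3 start differed by -0.43, and summed per gene Socs3 differed by -0.25. Among interferon response genes the differences were -1.82 for Ifit3, -0.94 for Isg15, -0.84 for Oas1a and -0.59 for Irf9. Ly6a differed by -0.93.

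Among immediate early genes, Fosl1 (-0.43), Dusp1 (-0.27), Egr1 (-0.24) and Csrnp1 (-0.19) were lower in co-SHI. The same held for Hoxb2 (-0.55), Hsf1 (-0.26), Aldoa (-0.26), Acaca (-0.24), Cebpb (-0.23) and Vegfa (-0.23). Cps1, an enzyme of the urea cycle in hepatocytes (0.64), Pfkp (0.31), Slc2a3 (0.25) and Cd34 (0.24) were higher in co-SHI. Many of these calls rest on single libraries. When libraries were left out singly, 0 to 11 immediate early genes were lower in co-SHI. The same fits left 0 to 1 Hox genes and 0 to 1 heat shock genes lower, and 0 to 1 hepatocyte genes higher. Of all genes, 1837 were called between these groups, and 609 without co-SHI 1. Which of the groups was kept in conditioned medium cannot be told apart, since peak lists and columns carry exchanged names.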

How the results depend on the processing

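The 20 named regions kept their direction and call in all 309 alternatives run on them. They had been chosen by smallest p in these same columns, so this is no separate support. Of them, 12 could be run in regions with an E12.5 FL peak and 17 in regions shared with the developmental table. In regions with an E12.5 FL peak, 10480 regions were called for SHI and 11201 for co-SHI against E12.5 FL. Between co-SHI and SHI, 812 were called with these groups fitted alone and 900 after thinning, and leaving out single libraries gave 220 to 4737. Leaving out single libraries gave 18817 to 23008 regions for SHI and 20521 to 28975 for co-SHI against E12.5 FL, and 5132 to 6181 genes for SHI. With gene-end regions alone 3585 genes were called. The correlation of same-named columns was 0.841 on average, 0.81 with an overlap of 1 base and 0.895 over identical regions. The mean position of co-SHI was 0.72, and 0.80 in regions with an E12.5 FL peak. DESeq2 called 23760, 26279 and 981 regions and 6394 genes. With the replicate number as a block the counts were 27201, 30734 and 1619 regions and 6574 genes. Between E12.5 FL and SHI, same-numbered libraries deviated together with r of 0.08, 0.03 and 0.21, and differently numbered ones with -0.15 to 0.09. With 3 libraries per group these r cannot tell if the numbers pair the libraries. Of named genes, 118 alternatives lost the call, 12 gained it and 10 turned the sign. Those were Atf3 (-0.09, regions shared by the tables), Cd48 (-0.26), Fcgr3 (-0.01), Foxo1 (0.01), Prrx1 (0.09) and Siglec1 (-0.04) with gene-end regions alone, and Foxo1 (0.10), Lin28b (0.06), Socs2 (-0.38) and Zap70 (0.08) in regions with an E12.5 FL peak. The cause of these changes was not tested. SHI 2 had the lowest total.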
